A study of Mus musculus with 12 samples.

Results

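Cell cycle and mitosis genes were followed in 3T3-L1 cells (written 3T3L-1 in the labels), a mouse embryonic fibroblast line that serves as a model of pre-adipocytes. The cells were either co-cultured with RAW264.7 cells, a mouse macrophage line held above them in an insert with 0.4 µm pores, or grown alone. Both kinds of culture received 100 µM serotonin (S), 100 µM cortisol (C), 100 µM of each (CS) or no hormone (NT), and RNA of the lower well was taken at 6, 24 and 48 h. Each of the 12 dual-colour arrays carried 1 of these 12 conditions, and paired the Cy5-labelled RNA of the co-culture with the Cy3-labelled RNA of matched cells grown alone. The gene set was a list of 44 symbols, 26 of G2 and mitosis (G2/M), 17 of the G1/S transition and DNA replication (G1/S) and Mnd1, a meiotic recombination gene. All 44 had a probe whose accession mapped to them, and 41 were tested among the 13930 genes, of 20890 named, with a probe well above background on 3 or more arrays in Cy5 or Cy3. The 41 comprised 24 G2/M genes, 16 G1/S genes and Mnd1, and each lay well above background on all 12 arrays in both channels with no saturated spot. Ccne2 (cyclin E2) and Aurkb (Aurora kinase B) were not well above background on any array in either channel, and Cenpf (a kinetochore protein) was so on 1 array, so these 3 were not tested.

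A dividing cell copies its DNA in S phase and separates the copies in mitosis. Genes of the G1/S transition, which encode the replicative helicase, its loaders and the enzymes that supply nucleotides, are switched on by E2F transcription factors. Genes of G2 and mitosis, which encode cyclins, mitotic kinases, spindle motors and kinetochore proteins, peak later and often carry CCAAT boxes, bound by NF-Y, and a cell cycle genes homology region (CHR), bound by complexes that contain the MuvB core. 3T3-L1 pre-adipocytes stop dividing at confluence, and on an adipogenic stimulus they pass through a limited number of divisions, called mitotic clonal expansion, before they accumulate lipid.

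The promoters of both classes were searched for the letters of these 3 elements, and 6 are shown. RefSeq promoter windows of assembly GRCm38.p6 (250 bases before to 50 bases after the start) matched 36 of the 44 genes, 34 with 1 window and 2 with more, and the 8 others were Mcm4, Kif20a, Ccne2, Foxm1, Gins1, Tpx2, Ccna2 and Aurkb. On either strand, CCAAT was found in 17 of 21 G2/M genes (81%), 9 of 14 G1/S genes (64.3%) and 41.1% of all 27025 genes in the table. The CHR letters TTTGAA or TTCGAA were found in 15 of 21 G2/M genes (71.4%), 3 of 14 G1/S genes (21.4%) and 21.7% of all genes. The E2F letters searched were TTCCCGC with its variant TTCGCGC and also TTGGCGC with its variant TTGCCGC, and they were found in 5 of 21 G2/M genes (23.8%), 8 of 14 G1/S genes (57.1%) and 10.9% of all genes. A window with CCAAT and CHR letters together belonged to 14 of 21 G2/M genes (66.7%), 3 of 14 G1/S genes and 9.65% of all genes, while the window of Mnd1 held none of the 3 motifs. These matches are descriptions of letters, and some E2F matches overlap one another.
The first 3 stretches belong to G2/M genes: Ccnb2 (cyclin B2) and Cdc20 (activator of the anaphase-promoting complex), which carry both CCAAT and CHR letters, and Kif18a (a kinesin that damps chromosome movement), which carries neither in its window and had the lowest ratio of the set. The other 3 belong to G1/S genes: Mcm2 and Mcm6, subunits of the MCM helicase that opens DNA for copying, and Cdc6, which helps to load that helicase. Each runs 150 bases before to 30 bases after the start on the strand of the gene, and capitals mark the CCAAT, CHR and E2F letters on either strand. They lie at chr9:70421525-70421704 (minus strand), chr4:118437314-118437493 (minus), chr2:109280588-109280767 (plus), chr6:88898751-88898930 (minus), chr1:128359676-128359855 (minus) and chr11:98908001-98908180 (plus).
Ccnb2: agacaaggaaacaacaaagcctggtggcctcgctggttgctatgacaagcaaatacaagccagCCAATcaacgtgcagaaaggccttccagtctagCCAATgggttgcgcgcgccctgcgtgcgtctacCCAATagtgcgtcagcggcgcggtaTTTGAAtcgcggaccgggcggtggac
Cdc20: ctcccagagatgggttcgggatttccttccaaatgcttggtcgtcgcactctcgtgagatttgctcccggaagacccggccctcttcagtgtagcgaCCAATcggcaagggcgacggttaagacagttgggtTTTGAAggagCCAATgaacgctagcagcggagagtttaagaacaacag
Kif18a: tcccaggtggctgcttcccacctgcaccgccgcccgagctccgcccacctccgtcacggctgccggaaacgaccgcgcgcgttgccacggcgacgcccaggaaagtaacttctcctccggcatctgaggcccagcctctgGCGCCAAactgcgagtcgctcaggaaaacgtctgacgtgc
Mcm2: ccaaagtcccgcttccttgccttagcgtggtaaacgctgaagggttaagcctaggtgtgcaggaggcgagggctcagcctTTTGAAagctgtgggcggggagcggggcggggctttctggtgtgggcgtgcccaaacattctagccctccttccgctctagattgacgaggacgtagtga
Mcm6: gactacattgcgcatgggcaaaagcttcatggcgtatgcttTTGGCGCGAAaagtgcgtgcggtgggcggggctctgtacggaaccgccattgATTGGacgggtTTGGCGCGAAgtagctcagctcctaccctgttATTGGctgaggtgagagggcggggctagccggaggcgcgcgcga
Cdc6: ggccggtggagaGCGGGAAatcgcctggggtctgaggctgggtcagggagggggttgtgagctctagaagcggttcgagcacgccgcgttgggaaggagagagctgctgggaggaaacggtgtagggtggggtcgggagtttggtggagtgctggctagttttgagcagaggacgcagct
Ccnb2 held CCAAT at -87, -54 and -21 and TTTGAA at 5, counted from the start site. Kif18a held 1 E2F match, GCGCCAA at -10, and Mcm6 held TTGGCGC at -109 and at -46, each overlapping a GCGCGAA match. The CCAAT of Mcm2 lies in its window outside the stretch shown.

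Several properties of the arrays bear on every value. Co-cultured cells were always in Cy5, so the ratio of a probe includes any dye bias it has. The arrays of 1 time shared 1 slide, and slide and time cannot be told apart. The labels name no separate cultures, and p-values therefore measure only the spread between these arrays. In the Cy3 channel, Zbtb16, a gene induced by glucocorticoids, went against 3 labels: its log2 intensity in cells alone was 10.66 for S at 6 h and 10.56 for S at 24 h, against 8.49 and 8.71 for NT, and it was 9.11 for CS at 24 h, against 11.30 and 11.45 for CS at 6 h and 48 h. The Cy5 channel followed the labels, and counts without these 3 arrays are given beside the results. Of 15 fibroblast markers, 13 were well above background on all arrays in both channels. At 6, 24 and 48 h, 1, 1 and 2 of the 15 were called higher in co-cultured cells and 1, 2 and 5 lower. Of all genes, 4.37%, 4.65% and 14.5% were called higher and 5.23%, 3.68% and 16.7% lower at these times. The 5 fibroblast markers lower at 48 h were Postn at -1.5, S100a4 at -1.44, Col3a1 at -1.32, Pdgfra at -1.07 and Fbn1 at -0.92. The 2 higher at 48 h were Fn1 at 0.79 and Dcn at 0.77, while Col1a1 was at -0.10. The part of these shifts in the cell cycle results was not tested. Of 10 adipocyte markers, Fabp4, Lpl and Pparg were well above background on all arrays, and Adipoq, which marks mature adipocytes, was not on any. In co-cultured cells at 48 h, Lpl was at -2.37, Fabp4 at -0.79 and Pparg at -0.20. Of 22 macrophage markers, 14 were tested. At 6, 24 and 48 h, 6, 1 and 5 of them were called higher in co-cultured cells and 0, 0 and 1 lower, against the shares of all genes given above. At 48 h the higher ones were Ctss at 1.53, Csf1r at 1.11, Fcer1g at 0.82, Itgam at 0.78 and Aif1 at 0.74. The lower one was Cd53 at -0.68. The log2 of the summed linear intensities of the 14 tested markers was 13.26 to 13.87 in co-cultured cells and 12.69 to 13.64 in cells alone. Within arrays it was higher in co-cultured cells on all but CS at 24 h, which had 13.41 against 13.47. The others ranged from 13.66 against 13.47 (NT at 48 h) to 13.77 against 12.94 (S at 6 h). C1qa was not well above background on any array, and Ptprc, Spi1, Fcgr1, Laptm5, Msr1 and C1qb were so on at most 1 array in either channel. The part of macrophage RNA in the cell cycle results was not tested.

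With loess normalization, transcription of most cell cycle genes was lower in co-cultured cells than in cells grown alone at each time, and with median centring alone that held at 48 h. Calls needed a limma p under 0.05, adjusted by Benjamini-Hochberg over all 13922 genes with a fitted ratio, together with a change of 1.5-fold or more. At 6 h, 25 of 41 genes were lower (5.23% of all genes) and 0 were higher (4.37% of all genes). At 24 h, 24 were lower (3.68% of all genes) and 0 higher (4.65%), and at 48 h, 29 were lower (16.7%) and 0 higher (14.5%). At an unadjusted p under 0.05, 0, 0 and 2 were higher at 6, 24 and 48 h. The median log2 ratio of co-culture over alone was -0.65, -0.63 and -0.85 over the 41 genes at the 3 times, against -0.02, 0.00 and -0.01 over all genes. Without the 3 arrays in doubt the lower genes numbered 22, 21 and 29. In RNA of a whole well, fewer dividing cells and less of each transcript per cell cannot be told apart.

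The same genes recurred across times. The lower call was made at all 3 times for 18 genes: Bub1, Ccna2, Ccnb1, Ccnb2, Cdc20, Cenpe, Cenpk, Kif11, Kif18a, Ndc80, Nuf2 and Plk1 of G2/M, Gins1, Mcm2, Mcm4, Mcm6 and Rrm1 of G1/S, and Mnd1. Another 5 (Cenpa, Mcm5, Mcm7, Tpx2 and Ube2c) were called at 48 h only and 1 (Cdt1, a helicase loader) at 6 h only. Birc5, Rrm2 and Top2a were called at 6 h and 24 h, Ccne1, Foxm1 and Mki67 at 6 h and 48 h, and Bub1b, Kif20a and Kif23 at 24 h and 48 h. The 8 genes called at no time were Aurka, Cdc45, Cdc6, Cdk1, E2f1, Mcm3, Pcna and Tyms. Of the 10 genes with several probes, 4 (Birc5, Ccne1, Cdk1 and Tpx2) had some but not all probes called lower at 48 h, and 0 had probes called in opposite directions. The ratio was below 0 on every array with a value for 32 of the 41 genes, as it was for 15.4% of all genes.

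**Figure D1:**
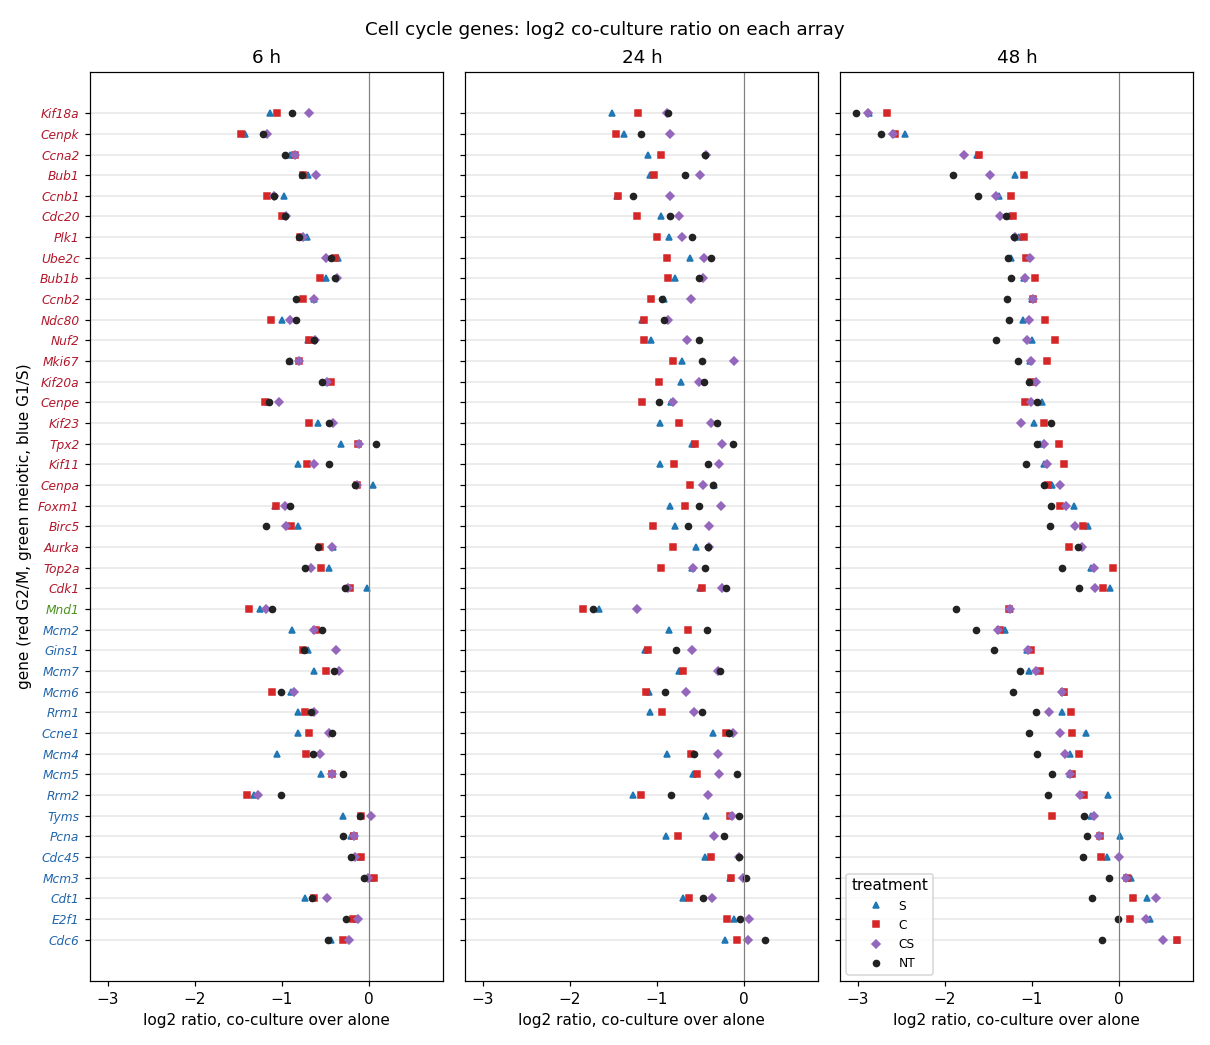
Log2 ratio of co-culture over alone (horizontal axis) for the 41 cell cycle genes (rows) on each array of 6 h, 24 h and 48 h, with a symbol for each treatment. Most points lie left of 0 at each time, and Kif18a and Cenpk stand furthest left at 48 h, between -3.01 and -2.45.

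Within this set, the median ratio of the G2/M genes lay lower than that of the G1/S genes. The further lists given below did not show that order at 6 h. Of 24 G2/M genes, 16, 17 and 20 were called lower at 6, 24 and 48 h, against 5.23%, 3.68% and 16.7% of all genes. The G2/M medians were -0.71, -0.69 and -1.03, and all 24 had a fitted ratio below 0 at each time. Of 16 G1/S genes, 8, 6 and 8 were called lower, with medians of -0.53, -0.52 and -0.53, and 15, 15 and 12 lay below 0. The median of the G2/M genes lay below that of the G1/S genes on each of the 12 arrays. At 48 h this difference was -0.65 for S, -0.41 for C, -0.52 for CS and -0.37 for NT (SD 0.125, n = 4 arrays), while the fitted medians differed by -0.50. At 6 h the same difference was -0.05 for S, -0.21 for C, -0.25 for CS and -0.34 for NT. At least 2-fold lower ratios at 48 h were held by 13 G2/M genes, 3 G1/S genes and Mnd1, and at least 4-fold lower ratios by 2 G2/M genes.

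The direction of the G1/S genes depended on the normalization. With the arrays centred on their median and no loess, the median of all genes stood at 0.23, 0.39 and -0.15 at 6, 24 and 48 h, and genes were called lower 5, 2 and 29 times and higher 2, 2 and 0 times among the 41. Across all genes that setting called 225 lower and 3487 higher at 6 h, against 728 and 608 with loess. The median of the G2/M genes was then -0.34, -0.16 and -1.19, and that of the G1/S genes was 0.12, 0.26 and -0.46, above 0 at 6 h and 24 h. Relative to all genes, the G2/M genes lay at -0.56, -0.54 and -1.03 and the G1/S genes at -0.10, -0.12 and -0.30, so both classes stayed below the median gene. The number of cell cycle genes below that median was 36, 36 and 37 of 41.

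**Figure D2:**
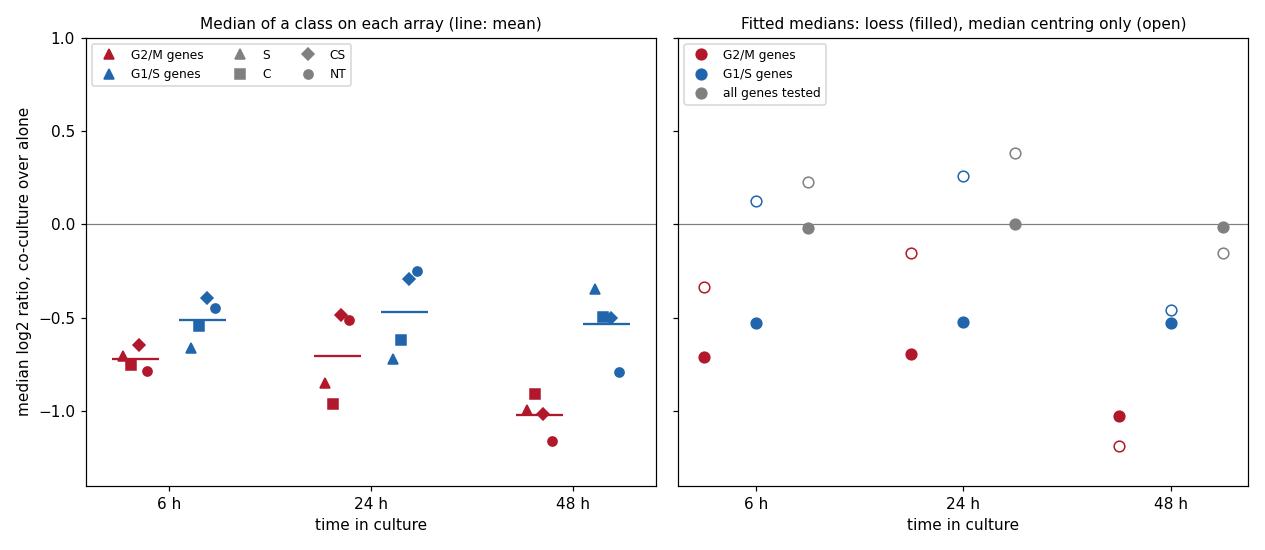
Median log2 ratio of co-culture over alone for G2/M and G1/S genes on each array (left, lines at the mean of the 4 arrays of a time) and medians of the fitted ratios with loess (filled) or median centring alone (open), beside all genes tested (right). At 48 h the G2/M medians lie between -1.16 and -0.91 and the G1/S medians between -0.79 and -0.34.

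Among the cyclins and their kinase, 3 of 4 genes were lower at 48 h (16.7% of all genes). Ccnb1 (cyclin B1), which drives entry into mitosis, had ratios of -0.98 (S), -1.17 (C), -1.08 (CS) and -1.08 (NT) at 6 h, and of -1.46 (S), -1.44 (C), -0.84 (CS) and -1.27 (NT) at 24 h. At 48 h they were -1.37 (S), -1.23 (C), -1.41 (CS) and -1.62 (NT), a fitted log2 ratio of -1.41 ± 0.12 (SE, adjusted p = 1.1e-06, limma) or 2.65-fold lower in co-cultured cells. Every array showed Ccnb1 lower in co-cultured cells, although its 3 probes differed in size at 48 h (-1.41, -1.31 and -0.65). Ccna2 (cyclin A2), which acts in S phase and at the start of mitosis, had ratios of -1.62 (S), -1.60 (C) and -1.78 (CS) at 48 h with no value for NT, and its fitted ratios were -0.89, -0.73 and -1.63 ± 0.14 at 6, 24 and 48 h (adjusted p = 2.59e-06 at 48 h). Its values at 48 h all lay below those at 6 h, which ranged from -0.96 to -0.85. Cdk1, the kinase that cyclins A and B activate, was the G2/M gene nearest to 0 at 48 h, with -0.10 (S), -0.19 (C), -0.28 (CS) and -0.46 (NT). Its fitted ratio of -0.25 ± 0.07 (adjusted p = 0.00957) was short of 1.5-fold. A second, dimmer Cdk1 probe gave -0.78 (adjusted p = 2.44e-06) and was called lower at 48 h, so the place of Cdk1 among the genes not called rests on the probe chosen.

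The lowest ratios of all 41 genes belonged to Kif18a, a spindle gene, and Cenpk, a kinetochore gene. All 5 kinesin and spindle genes (Kif11, Kif18a, Kif20a, Kif23 and Tpx2) were lower at 48 h, with fitted ratios between -2.86 and -0.85. So were 5 of 6 centromere and kinetochore genes, among them Ndc80 and Nuf2, which hold microtubules, and Cenpa, the centromeric histone. Of all genes, 16.7% were called lower at 48 h. Kif18a had ratios of -1.13 (S), -1.06 (C), -0.68 (CS) and -0.88 (NT) at 6 h and of -1.51 (S), -1.21 (C), -0.88 (CS) and -0.87 (NT) at 24 h. At 48 h it had -2.86 (S), -2.67 (C), -2.88 (CS) and -3.01 (NT), with a fitted ratio of -2.86 ± 0.17 (adjusted p = 8.34e-08), 7.24-fold lower in co-cultured cells. All 4 arrays of 48 h lay below all 8 of the earlier times. Cenpk, a subunit of the inner kinetochore, followed the same course, with -1.42 (S), -1.47 (C), -1.17 (CS) and -1.21 (NT) at 6 h and -2.45 (S), -2.57 (C), -2.59 (CS) and -2.73 (NT) at 48 h. Its fitted ratio at 48 h was -2.59 ± 0.17 (adjusted p = 2.11e-07), 6.01-fold lower, and a second Cenpk probe gave -2.53.

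Most mitotic regulators were lower too. Of 4 mitotic kinase and checkpoint genes, 3 were lower at 48 h (Bub1, Bub1b and Plk1), against 16.7% of all genes. Aurka, at -0.47, was not called. Cdc20 and Ube2c, the activator and a ubiquitin-conjugating enzyme of the anaphase-promoting complex that ends mitosis, were both lower, at -1.28 and -1.15. Mki67, which encodes the proliferation marker Ki-67, had ratios of -0.90 (S), -0.80 (C), -0.80 (CS) and -0.92 (NT) at 6 h, and of -0.71 (S), -0.81 (C), -0.12 (CS) and -0.47 (NT) at 24 h. At 48 h it had -1.02 (S), -0.82 (C), -1.01 (CS) and -1.16 (NT), and its fitted ratio was -1.0 ± 0.10 (adjusted p = 2.86e-06). Thus Mki67 was lower on all 12 arrays, least of all on the CS array of 24 h. Foxm1, a transcription factor of G2/M genes, was at -0.64, and Top2a, which untangles chromosomes, was at -0.33 and not called.

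Among the 8 G1/S genes lower at 48 h were 5 of the 6 MCM genes (16.7% of all genes were lower), while Mcm3 was at 0.05. Mcm2 had ratios of -0.88 (S), -0.60 (C), -0.63 (CS) and -0.54 (NT) at 6 h and of -1.31 (S), -1.37 (C), -1.39 (CS) and -1.65 (NT) at 48 h, with no value for CS at 24 h. Its fitted ratio at 48 h was -1.43 ± 0.10 (adjusted p = 4.52e-07), 2.69-fold lower, and without the 3 arrays in doubt Mcm2 at 6 h was at -0.55 and no longer called. Mcm7 had -1.03 (S), -0.91 (C), -0.95 (CS) and -1.13 (NT) at 48 h, fitted at -1.01 ± 0.08, and -0.46 at 6 h, which was 0.33 with median centring alone. Mcm4 had -0.56 (S), -0.46 (C), -0.62 (CS) and -0.94 (NT) at 48 h, fitted at -0.64 ± 0.09, close to its -0.74 at 6 h, and it was no longer called at 48 h without the NT array (-0.52) or the CS array (-0.57) of that time. For Mcm2 and Mcm7 the arrays of 48 h lay wholly below those of 6 h, whereas for Mcm4 they overlapped. With median centring alone, Mcm4 was at 0.36 at 6 h.

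The other G1/S genes were lower, near 0 or above it. Gins1, a subunit of the active helicase, had ratios of -1.05 (S), -1.01 (C), -1.04 (CS) and -1.43 (NT) at 48 h, with a fitted value of -1.13 ± 0.10 (adjusted p = 1.03e-06). Ccne1 (cyclin E1), which starts S phase, had -0.81 (S), -0.69 (C), -0.46 (CS) and -0.43 (NT) at 6 h and -0.37 (S), -0.54 (C), -0.67 (CS) and -1.03 (NT) at 48 h, and was called at both times (-0.60 and -0.65) but not at 24 h (-0.21). Its call at 6 h was lost without the S array (-0.50) or the C array (-0.55) of that time and without the 3 arrays in doubt (-0.43), and its call at 48 h without the NT array (-0.49). A second Ccne1 probe gave -0.35 at 6 h and -0.08 at 48 h and was called at neither time, and with median centring alone the fitted value at 6 h was 0.22. Cyclin E1 thus had a negative ratio on all 12 arrays by its brighter probe, and its calls rest on that probe. Rrm2, the small subunit of ribonucleotide reductase, had -1.32 (S), -1.39 (C), -1.27 (CS) and -1.0 (NT) at 6 h and -0.13 (S), -0.40 (C), -0.45 (CS) and -0.81 (NT) at 48 h. Its fitted ratios were -1.25 ± 0.14, -0.92 ± 0.14 and -0.45 ± 0.14 at 6, 24 and 48 h, so it came nearer to 0 with time (-0.62 and called at 48 h without the S array of that time), while its partner Rrm1 was still called at 48 h, at -0.74. Cdc6 had -0.43 (S), -0.29 (C), -0.22 (CS) and -0.47 (NT) at 6 h and 0.68 (S), 0.67 (C), 0.51 (CS) and -0.19 (NT) at 48 h, fitted at 0.42 ± 0.12 (adjusted p = 0.0088), short of 1.5-fold. The 3 hormone arrays of 48 h lay above 0 and the NT array below it, and without the NT array of 48 h the fitted value was 0.64 and called. A second, dimmer Cdc6 probe gave -0.24 at 6 h and -0.27 at 48 h, so the sign at 48 h rests on the probe chosen. E2f1, an activator of G1/S genes, was at 0.20 (adjusted p = 0.007) and Cdt1 at 0.15, neither called. Pcna, the sliding clamp of the replicating polymerases, was at -0.20, Tyms, which makes thymidylate, at -0.44 and Cdc45, a helicase subunit, at -0.19, none of them called.

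Mnd1, whose protein acts with that of Psmc3ip in strand exchange during meiosis, was lower on all arrays. Its ratios were -1.25 (S), -1.38 (C), -1.17 (CS) and -1.11 (NT) at 6 h, -1.66 (S), -1.85 (C), -1.23 (CS) and -1.73 (NT) at 24 h and -1.25 (S), -1.26 (C), -1.25 (CS) and -1.87 (NT) at 48 h. The fitted ratios were -1.23, -1.62 and -1.41, each ± 0.14 (adjusted p = 7.25e-05, 1.8e-05 and 4.18e-06). Psmc3ip was at -0.23, -0.36 and -1.04 at the 3 times and called lower at 48 h only, while Sycp3, a component of the meiotic chromosome axis, was at 0.96 at 48 h. Rec8, also listed beside Mnd1, was at -0.11, -0.11 and 0.11 and not called. The median log2 intensity of these other meiotic genes was 6.91 to 8.11 over arrays and channels, against 11.61 to 14.07 for Mnd1. A second, dimmer Mnd1 probe gave -0.897, -1.365 and -1.71 at 6, 24 and 48 h and was called lower at each time. By that probe Mnd1 was lowest at 48 h, as Psmc3ip was, so the likeness of their courses rests on the probe chosen. Sycp3 and Rec8 had courses unlike that of Mnd1 by either probe. The low level of the other meiotic genes limits this comparison.

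Within a time, the 4 arrays of different treatments did not lie in one order. At 6 h the lowest ratio was on the S array for 13, the C array for 11, the CS array for 1 and the NT array for 16 of 41 genes. At 24 h it was on the S array for 23 and the C array for 17 of 40 genes with 4 values, and S and C both lay below CS and NT for 36 of the 40. The S and CS arrays of 24 h are among those in doubt, and the part of that doubt in this split was not tested. At 48 h the NT array was lowest for 35 of 40 genes. Each treatment of a time had 1 array, and the order of the arrays was not counted over all genes. Whether these orders are particular to cell cycle genes was therefore not tested.

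Time in culture was read from each channel. In co-cultured cells, 14 genes were higher at 48 h than at 6 h (14.2% of all genes) and 2 were lower (14.2%). In cells alone, 18 genes were higher at 48 h (7.48% of all genes) and 0 were lower (6.15%), with 1 lower at an unadjusted p under 0.05. Without the 3 arrays in doubt these counts were 15 and 2 in co-cultured cells, and 16 higher in cells alone. In cells alone the higher genes were 15 of 24 G2/M genes (median change 0.68), 2 of 16 G1/S genes (Mcm2 and Rrm1, median of the class 0.10) and Mnd1. In co-cultured cells they were 10 G2/M genes and 4 G1/S genes: Cdc6 at 1.00, Cdt1 at 0.80, Rrm1 at 0.72 and Rrm2 at 1.09. Cdc6 was dim, with a log2 intensity of 6.82 to 8.71 in co-cultured cells, though well above background on all arrays. Its 2 probes differed in the sign of the ratio at 48 h, which limits its value here. Rrm1 was the G1/S gene called higher in both channels. The change of Mnd1 was 0.58 in co-cultured cells, just short of 1.5-fold, and was called there without the NT or the CS array of either 6 h or 48 h (0.60 to 0.66). At 24 h, 9 genes, all of G2/M, were higher than at 6 h in co-cultured cells (5.1% of all genes) and 0 lower (3.79%), and 12, of which 11 were of G2/M, were higher in cells alone (5.25%) and 0 lower (5.88%). At an unadjusted p under 0.05, 1 gene was lower in co-cultured cells and 0 in cells alone. Between 48 h and 24 h, co-cultured cells had 3 higher genes (Cdc6, Cdt1 and Rrm2, against 12% of all genes) and 3 lower (Kif18a, Cenpk and Mcm7, against 14.4%). Over that interval cells alone had 1 higher gene, Kif20a (3.38% of all genes), and 0 lower (1.13%), with 4 lower at an unadjusted p under 0.05. Without the 3 arrays in doubt the change of Mcm2 in cells alone was 0.95 and no longer called (adjusted p = 0.0586). Slide and time cannot be told apart in these values.

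Levels of single genes followed several courses. Ccnb2 averaged 11.74 ± 0.08, 12.82 ± 0.34 and 13.0 ± 0.13 at 6, 24 and 48 h in co-cultured cells and 12.45 ± 0.13, 13.70 ± 0.39 and 14.06 ± 0.13 in cells alone (log2 intensity, SD, n = 4 arrays). Its change at 48 h against 6 h was 1.26 ± 0.11 in co-cultured cells (adjusted p = 7.32e-06) and 1.62 ± 0.13 in cells alone (adjusted p = 0.000116), so cyclin B2 was higher at 48 h in both. Kif18a averaged 10.35 ± 0.10, 10.83 ± 0.10 and 8.65 ± 0.09 in co-cultured cells and 11.29 ± 0.20, 11.94 ± 0.34 and 11.51 ± 0.09 in cells alone. It was 3.25-fold lower at 48 h than at 6 h in co-cultured cells (-1.70 ± 0.09, adjusted p = 7.53e-07), and its change in cells alone was 0.22 ± 0.12 (adjusted p = 0.184). Cenpk averaged 11.43 ± 0.11, 12.31 ± 0.19 and 10.61 ± 0.12 in co-cultured cells and 12.75 ± 0.18, 13.53 ± 0.28 and 13.20 ± 0.20 in cells alone. Kif18a and Cenpk were the 2 genes lower at 48 h in co-cultured cells, and both had their highest mean at 24 h in either channel. The difference at 48 h against 6 h was -0.14 in co-cultured cells and 0.01 in cells alone for Mki67, and -0.39 in co-cultured cells and -0.33 in cells alone for Ccne1, none of them called.

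**Figure D3:**
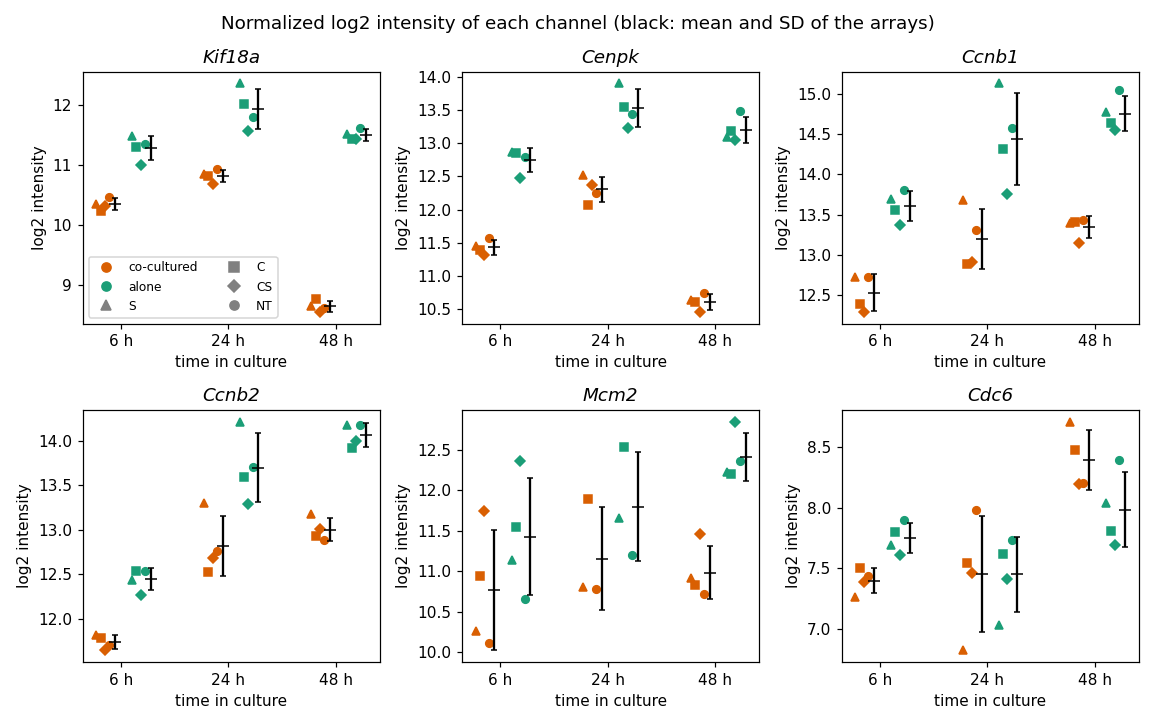
Normalized log2 intensity of 6 genes at 6, 24 and 48 h in co-cultured cells (orange) and cells alone (green), with 1 point per array and black bars for the mean and SD. Co-cultured Kif18a and Cenpk drop to means of 8.65 and 10.61 at 48 h, whereas Ccnb2 is at 13.0 in co-cultured cells and 14.06 in cells alone.

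The co-culture ratio itself differed between 48 h and 6 h for 12 genes. It fell for 9 (12.2% of all genes were called lower): Kif18a with a log2 difference of -1.92, Cenpk with -1.27, Mcm2 with -0.77, Ccna2 with -0.74, Ube2c with -0.73, Tpx2 with -0.73, Bub1 with -0.71, Cenpa with -0.68 and Bub1b with -0.64. It rose for 3 (11.9% of all genes were called higher), with 0.77 for Cdc6, 0.77 for Cdt1 and 0.80 for Rrm2. Of the 9 genes whose ratio fell, 8 were of G2/M and 1 of G1/S, and the 3 whose ratio rose were of G1/S. The rise of Cdc6 was that of its brighter probe, and the call for Ccna2 was lost without the CS array of 48 h (-0.58). With median centring the ratio fell for 30 genes and rose for 0. In that setting the median of all genes was itself 0.23 at 6 h and -0.15 at 48 h. The part of that shift in the 30 falls was not tested. The SD of the log2 ratio over all genes was 0.66 to 0.70 on the arrays of 48 h and 0.33 to 0.45 on those of 6 h and 24 h. With arrays scaled to a like spread, the ratio fell for 3 genes. The G2/M medians were then -0.79, -0.73 and -0.91 at 6, 24 and 48 h, and the G1/S medians -0.57, -0.55 and -0.46. The part of the wider spread at 48 h in these falls was not tested. Between 24 h and 6 h the ratio changed for 0 genes in either direction (1.68% of all genes higher, 0.661% lower), with 3 higher and 3 lower at an unadjusted p under 0.05. Between 48 h and 24 h it rose for 1 gene (9.32% of all genes) and fell for 5 (11.6%).

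**Figure D4:**
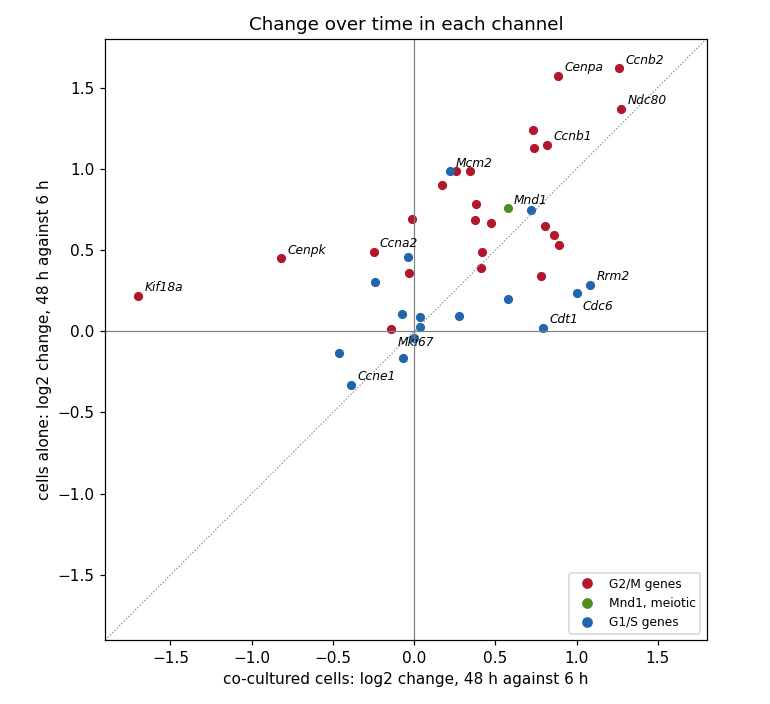
Log2 change at 48 h against 6 h in co-cultured cells (horizontal axis) and in cells alone (vertical axis), 1 point per gene, with a dotted line where both are equal. Kif18a (-1.70 and 0.22) and Cenpk (-0.82 and 0.45) stand apart at the left, and Ccnb2 (1.26 and 1.62) lies at the upper right.

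Hormones were compared with NT across the 3 times. In the ratio, 0 of 41 genes were called for S, C or CS, as were 0% of all genes, and at an unadjusted p under 0.05 the numbers were 0 higher and 2 lower for S, 0 and 0 for C and 2 and 0 for CS. In cells alone 0 genes were called for any hormone, against 0% of all genes higher or lower for S, 0.144% higher and 0.0646% lower for C and 1.22% higher and 0.294% lower for CS. There were 2 higher and 1 lower for S, 2 and 1 for C and 3 and 7 for CS at an unadjusted p under 0.05 in cells alone. In co-cultured cells 1 gene was called, Mcm2, which was higher with CS than with NT (2.77% of all genes were called higher and 0.948% lower; for C, 1.11% were higher and 0.804% lower, and for S 0%). Its log2 intensity in co-cultured cells was 11.74 and 11.46 with CS at 6 h and 48 h, against 10.11 and 10.72 with NT, a fitted difference of 1.24 ± 0.23 (adjusted p = 0.0178), higher in 2 of 2 pairs. In cells alone the CS values were 12.37 and 12.85, against 10.65 and 12.37 with NT, and the fitted difference was 1.24 (adjusted p = 0.0549). Mcm2 thus had a fitted difference of the same size in both channels, called in co-cultured cells. Without the 3 arrays in doubt, 0 genes were called.

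Other cell cycle genes, from lists of the same pathways, were set beside the 41. Of all genes tested, 5.23%, 3.68% and 16.7% were called lower at 6, 24 and 48 h, and 4.37%, 4.65% and 14.5% higher. Of 41 further G2/M genes, 17, 18 and 25 were lower in co-cultured cells at 6, 24 and 48 h and 0 were higher, led at 48 h by Pbk at -2.23, Depdc1a at -1.93 and Nusap1 at -1.84. Of 31 further G1/S genes, 15, 13 and 15 were lower, among them Orc6 at -1.45 and Prim1 at -1.35 at 48 h, and 0, 0 and 2 were higher, Ung at 0.78 and Prim2 at 0.60 (8 arrays). Orc6 belongs to the origin recognition complex, Prim1 and Prim2 to primase, and Ung removes uracil from DNA. At 6 h the median ratios of the further G2/M genes were -0.519 (S), -0.429 (C), -0.425 (CS) and -0.49 (NT). Those of the further G1/S genes were equal or lower, at -0.677 (S), -0.566 (C), -0.439 (CS) and -0.49 (NT). At 48 h the G2/M medians lay lower, at -0.752 (S), -0.69 (C), -0.765 (CS) and -0.848 (NT). The G1/S medians were then -0.601 (S), -0.513 (C), -0.554 (CS) and -0.721 (NT). Another list held 23 genes: kinase inhibitors, Rb family members, MuvB subunits such as Lin54 and other genes linked to restraint of the cycle. Its higher genes numbered 6, 4 and 4 and its lower ones 2, 3 and 6 at these times, against the shares given above. Ccng2, an unconventional cyclin that slows the cycle, was at 2.51, 1.48 and 1.68 at 6, 24 and 48 h, and at 48 h Btg1 and Gadd45b were at 0.96 and 0.74, while Ccng1 was at -1.58, Rbl1 at -1.53 and Lin54 at -0.80. Cdkn1a, which encodes the kinase inhibitor p21 and was chosen after its values were seen, was at 0.93 and 1.15 at 6 h and 24 h, both called, and at 0.13 at 48 h. In a list of 14 G1 drivers and other regulators such as Fbxo5, 2 were higher at 48 h (Cdc25a at 0.86 and E2f3 at 0.82). In the same list 3 were lower (Ccnh at -1.54, Fbxo5 at -1.34 and Ccnd1 at -0.79). The counts of this list and of the list of 23 genes at 48 h lie near the shares of all genes called, 14.5% higher and 16.7% lower. Set against the promoter letters shown above, the median ratio at 48 h of the G2/M genes was -1.03 over 14 tested genes with CHR letters and -1.23 over 6 without. For G1/S genes it was -1.01 over 3 genes with CHR letters and -0.44 over 11 without. For CCAAT, the medians with and without it were -1.04 (16 genes) and -1.05 (4) in G2/M genes and -0.60 (9) and 0.15 (5) in G1/S genes. The 5 G1/S genes without CCAAT include Cdc6, whose probes differ in sign at 48 h. For E2F letters the medians with and without them were -1.41 (5 genes) and -1.05 (15) in G2/M genes and -0.52 (8) and -0.32 (6) in G1/S genes.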

How the data were processed

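RNA of 12 conditions was hybridised to Agilent mouse arrays of 2 colours. Spots were quantified by the authors with Agilent Feature Extraction, given as 10.7.3.1 by the file headers and as 10.5.1.1 by the submitters' notes. Deposited for each spot are its intensity and local background per channel on a linear scale, the log10 ratio of Cy5 over Cy3, and other columns, which flag outlier, saturated and well measured spots. The matrix of values deposited by the authors equals that log10 ratio within 0.00499.

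Median signals were corrected with normexp (offset 50) and loess-normalized within arrays in limma 3.58.1 (R 4.3.3, statmod 1.5.0 and the package data.table at 1.17.8), and channels were further normalized with Aquantile. Left out were control spots, outlier spots and 58 spots whose local background exceeded 5 times the median of their array. Of 39429 probes, 27515 were named (27508 by accession through the RefSeq table of GRCm38.p6), and 23135 were well above background on 3 or more arrays in Cy5 or Cy3. The brightest probe stood for a gene, and 10 of the 41 genes had several probes that passed. The number of arrays limits the precision.

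Ratios and channels were fitted with lmFit and eBayes (trend) on time plus treatment over all 12 arrays (6 residual degrees of freedom). Calls took a two-sided Benjamini-Hochberg adjusted p under 0.05 over all genes together with a change of 1.5-fold or more. The 44 genes, the other lists and the tests were chosen with earlier results of these data known. Values per array are given for the 3 lowest and 1 highest genes of each class by the ratio at 48 h, the 2 of each class lowest in cells alone at 48 h against 6 h, and Mnd1, Kif18a, Cenpk, Ccnb1 and Rrm2, and of other lists up to 3 genes called in each direction at 48 h. A gene that this rule names is not reported here. Ccnb2, Cdc20 and Mcm6 were added after their values were seen.

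Alternatives were other signals, offsets, filters, normalizations, fold thresholds and probe summaries, array weights, time alone, a joint fit of both channels (intraspot correlation 0.608), and leaving out arrays. The fits were tested on simulated data: of 100 genes changed by 0.8 on the log2 scale between 48 h and 6 h, 92 were called in the ratio (13117 genes) and 83 in cells alone. Plots were made in matplotlib 3.10.9 (python 3.11.15).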

Additional observations from a re-analysis of the deposited data

Results flagged for a closer look

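Of 49 groups of 4 arrays of 1 time, 3 held an array far from the others, where chance gives about 1 in 20 (Dixon's test at 95%). The ratio of Gins1 at 6 h was -0.37 on the CS array, against -0.75 to -0.70 on the other arrays, and at 48 h it was -1.43 on the NT array, against -1.05 to -1.01. Mnd1 at 48 h was at -1.87 on the NT array, against -1.26 to -1.25 on the S, C and CS arrays.

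The log2 ratio of co-culture over alone differed between 48 h and 6 h by the time term of the fit for 12 of 41 genes, where 12.2% of all genes were called lower and 11.9% higher. The difference was -1.92 for Kif18a, -1.27 for Cenpk, -0.77 for Mcm2, -0.74 for Ccna2, -0.73 for Ube2c, -0.73 for Tpx2, -0.71 for Bub1, -0.68 for Cenpa and -0.64 for Bub1b. It was 0.77 for Cdc6, 0.77 for Cdt1 and 0.80 for Rrm2. Each time had its own slide, which cannot be told apart from time. The log2 ratios of all genes had a wider spread on the slide of 48 h (SD 0.66 to 0.70) than on the others (0.33 to 0.45).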

How the results depend on the processing

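Counts below are of the 41 cell cycle genes. With no fold threshold the ratio fell for 16 and rose for 6 between 48 h and 6 h, and co-cultured cells had 6 lower and 23 higher. With at least 2-fold, 6, 5 and 17 were lower in co-culture at 6, 24 and 48 h, the ratio fell for 2 and rose for 0, co-cultured cells had 1 lower and 4 higher at 48 h, and cells alone had 6 higher. With median centring without loess, 5 and 2 were lower at 6 h and 24 h, and the G2/M minus G1/S median at 48 h was -0.73. The ratio then fell for 30 and rose for 0, while the median of all genes was 0.23 at 6 h and -0.15 at 48 h. Under that setting Ccne1 at 6 h turned to 0.22, Mcm4 at 6 h to 0.36 and the Mcm4 difference between 48 h and 6 h to -0.76, and the cause was not tested. With scale normalization between arrays the ratio fell for 3. Without the 3 arrays in doubt, 0 genes were called for hormones.

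Leaving out each array gave 23 to 25, 18 to 30 and 25 to 30 lower genes at 6, 24 and 48 h, 7 to 10 whose ratio fell, 3 to 3 whose ratio rose and a class difference of -0.52 to -0.41. It gave 2 to 2 lower and 14 to 16 higher genes in co-cultured cells, 0 to 0 lower and 16 to 19 higher in cells alone, and 0 to 4 called for hormones. Of 1564 values of single named genes under the alternatives, 35 lost the call and 23 gained it. Of the 25 values that turned sign, 3 were called in either setting, and 21 of the 22 others were under 0.2 in both. The counts of higher genes in both channels, of ratios that rose and the hormone alternatives were added after seeing the data. Each ratio already pairs both channels of an array, and the labels carry no replicate numbers for a further block.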
